A study of Solanum pimpinellifolium and Solanum chilense with 12 samples.

Results

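The genes described here stood at least about 4-fold higher after self-pollination in self-compatible styles and at much the same level in self-incompatible styles with and without pollination. They were chosen by their measured values. For each gene, D was the log2 of (mean of the pollinated libraries + 0.5) over (mean of the unpollinated libraries + 0.5), on RPKM, a read count scaled for the exon length of the gene and for the reads mapped in the library. A member had a D of at least 2 in the self-compatible species, with its lowest pollinated library above its highest unpollinated one and an unpollinated mean of at least 1 RPKM. Its D in the self-incompatible species lay between -0.5 and 0.5, and its mean over the 6 self-incompatible libraries was at least 1 RPKM. Of 34718 genes with values, 82 met this rule. Because the rule used both responses, the differences given for the members are descriptions with no test of their own.

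RNA from styles with their stigmas was sequenced in 12 libraries, 3 for each of 4 groups. SCP and SCUP were self-pollinated and unpollinated styles of the self-compatible (SC) tomato species Solanum pimpinellifolium LA1585, and SIP and SIUP were self-pollinated and unpollinated styles of the self-incompatible (SI) species Solanum chilense LA0130. Styles of all 4 groups were collected at 24 h. Each mating type was represented by 1 accession of 1 species, so mating system, species and the match of each species to the tomato reference genome cannot be told apart, and the libraries are described as biological replicates without saying whether each came from different plants, so p-values measure the spread between these libraries, whatever its source.

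A style is the stalk between the stigma and the ovary, and pollen tubes grow through its transmitting tissue towards the ovules. In the tomato family a self-incompatible style makes S-RNases, secreted ribonucleases that enter pollen tubes and stop those that carry a matching S-haplotype within the style, while in a self-compatible species self pollen tubes pass through. Growing tubes draw water, ions and sugars from the style, loosen walls and are met by a style that carries out receptor kinase, calcium, redox and defence signalling. A pollinated style also holds the pollen tubes themselves, so the RNA of SCP and SIP libraries can come from the style or from the pollen. In whole styles, fewer cells of a type and less RNA per cell cannot be told apart either.

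In all, 338 genes met the SC limits of the rule, and their D in SI ran between -1.43 and 5.30 with a median of 0.81. The 82 members made up 24.3% of them. A larger share, 210 genes or 62.1%, had an SI D above 0.5, and in 63 genes the SI D was at least 2. The rest were 9 genes with an SI D below -0.5 and 37 genes that lay within 0.5 but averaged under 1 RPKM in SI. The members thus form the lower band of a broad range of SI values and are not a group set apart from it by a gap, as the plot of the D values of both species shows. At the limits, Solyc09g075140 was the member with the lowest SC D (2.003), and Solyc04g063350 missed the limit with 1.999. The lowest SCUP mean was 1.11 RPKM in Solyc01g098490, against 0.959 RPKM in the nearest gene left out, Solyc04g078660. The lowest SI D was -0.494 in Solyc06g060710, against -0.501 in Solyc09g090980 just outside. At the upper SI limit, Solyc03g116700 was inside with 0.498 and Solyc02g077080 outside with 0.524. The lowest SI mean was 1.03 RPKM in Solyc07g052130, and Solyc12g096740 was left out with 0.981 RPKM.

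**Figure D1:**
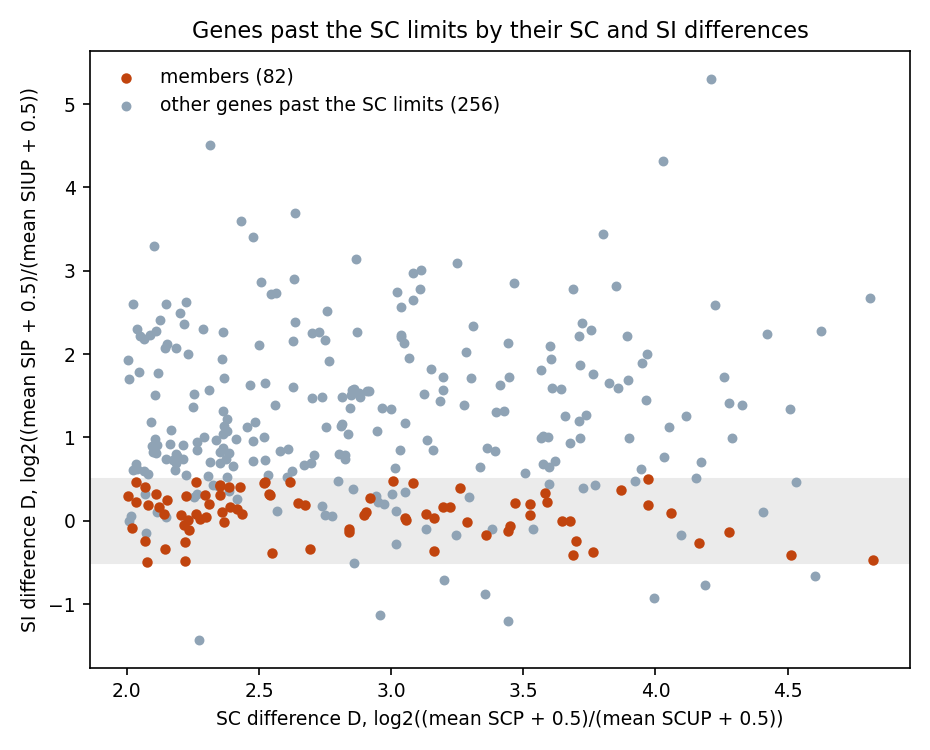
D in SI styles (vertical axis, log2) against D in SC styles (horizontal axis, log2) for the 338 genes that met the SC limits, 1 point a gene, with the 82 members in orange and the other 256 genes in grey. The grey band marks the SI limits of -0.5 to 0.5; 210 genes lie above it, up to 5.30, and 9 lie below it.

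Among the members, SC D ran up to 4.82 with a median of 2.58, and it was at least 3 in 32 of them. As a ratio of group means, the SCP level was 4.05 to 30.8 times the SCUP level, with a median of 6.43. Mean levels were 7.01 to 1462 RPKM in SCP styles (median 40.6) and 1.11 to 223 RPKM in SCUP styles (median 4.23). In SI styles the member medians were 5.25 RPKM for SIP and 4.83 RPKM for SIUP, so the medians of both SI groups were close to that of SCUP. SI D was above 0 in 56 members and below 0 in 26, with a median of 0.10. Libraries held 13879490 to 17021427 high-quality read pairs, but the reads on genes, worked out from the spacing of the RPKM values, numbered 12924607 to 14497115 in the SC libraries and fewer, 10173006 to 11932036, in the SI libraries, and a single read, over 1 kb of exon, amounted to between 0.0690 and 0.0983 RPKM. These recovered totals do not equal the mapped read pairs given for the same libraries, so how the reads were counted is uncertain, and read numbers below are approximate. By them, 13 members had under 10 reads in at least 1 SCUP library and 18 in at least 1 SI library. The map of the 82 members over the libraries shows the 3 SCP columns above the others in most rows, and no such step between SIP and SIUP.

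**Figure D2:**
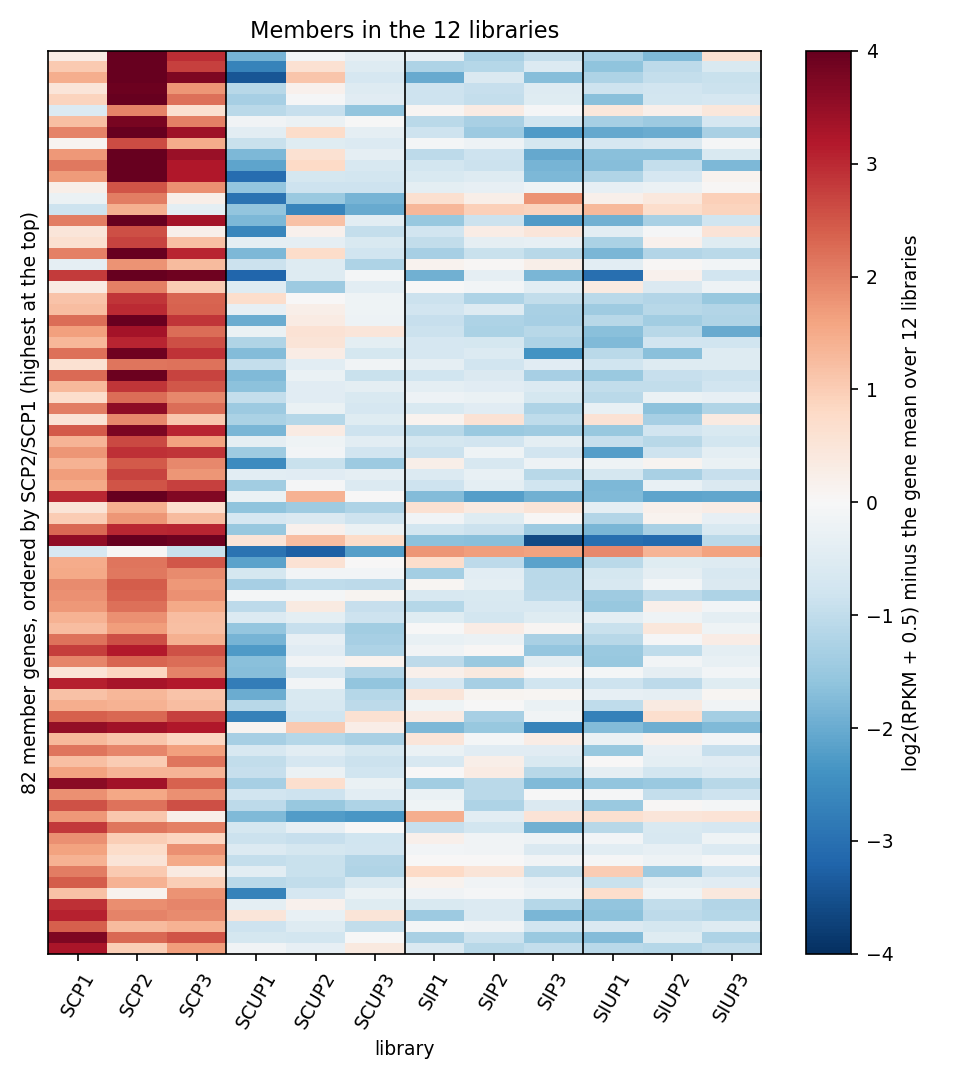
Each row is a member gene and each column a library; the colour is log2(RPKM + 0.5) minus that gene's mean over the 12 libraries, with rows ordered by the ratio of SCP2 to SCP1. The SCP columns are red throughout most rows, SCP2 is the deepest red in the upper rows, and the SIP and SIUP columns look alike.

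Tested with limma on log2(RPKM + 0.5), with Benjamini-Hochberg adjustment over all genes tested in the species, the SC response passed an adjusted p of 0.05 upwards in 64 of the 82 members. Over all 18913 genes tested, 4.66% passed upwards. As the rule chose the members on this contrast, nothing is read from that gap. All 82 members had an unadjusted p under 0.05 in SC, and their median fitted log2 difference was 2.53, against -0.12 over all genes tested. The count depended on single libraries: it was 37 without SCP2, 42 without SCP3, 35 without SCUP1 and 30 without SCUP3, but 74 without SCP1 and 57 without SCUP2. In SI, 81 members were tested and 0 passed with limma, with 5 at an unadjusted p under 0.05, while 3.65% of all genes tested passed in either direction. With voom on recovered reads, 0 passed as well, with 4 at an unadjusted p under 0.05. The rule keeps only genes with a small SI D, so nothing is read from these SI counts either.

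A small mean difference is not the same as a precise one. The limma 95% interval of the SI log2 difference lay within -1 to 1 for 45 of the 81 members, and the median distance of its bounds from the estimate was 0.69. For 24 members the interval reached past 1, for 20 it reached below -1, and for 2 it reached 2 or more. In these 2 an SI rise of 2 on the log2 scale, the value the rule asks of SC D, cannot be told from none at this precision. The SIUP1 library was low across the members, with a median of -1.09 on the log2 scale centred per gene, against -0.65 in SIUP2 and -0.54 in SIUP3. Without it the median SI difference of the members was -0.01 in place of 0.10, and without SIUP3 it was 0.21. All SIP libraries lay above all SIUP libraries in 5 members and below them in 1, where 11.2% and 20.8% of all genes tested in SI did so. As the rule limits SI D, nothing is read from these counts.

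The difference between the responses, (SCP minus SCUP) minus (SIP minus SIUP), was fitted over all 12 libraries and asks whether the rise was larger in SC than in SI styles. A rise only in SC styles also needs an SI response near 0, and the SI interval lay within -1 to 1 for 45 of 81 members only. The difference passed in 32 members, in the direction that the rule fixes, and did not pass in 50. Over all 20277 genes tested, 0.784% passed in that direction, and again the rule chose the members on these values. The median fitted difference was 2.46 on the log2 scale, against -0.05 over all genes tested. Its 95% interval lay above 0 in 79 members and above 1 in 52. Leaving out 1 library gave 4 calls without SIUP3, 7 without SIP3, 8 without SIUP2, 8 without SCUP3, 9 without SCP2, 11 without SIP1, 12 without SCUP1, 15 without SIP2 and 57 without SCP1. It gave 23 calls without SCP3, 29 without SIUP1 and 34 without SCUP2. With voom on recovered reads, 7 members were called.

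What the members encode is known here for only some of them. Functional terms from the study's Gene Ontology annotation, of which part was at hand, were found for 23 members. The other 59 have no name or term in the sources used here and are given by their IDs, and for the same reason the labelled tissue was not checked against named style markers. Of the 23 with terms, 22 passed the SC test, and 17 passed the test of the difference; the one that did not pass in SC was Solyc07g052130. The terms at hand covered 860 genes that had been picked as changed after pollination in these same libraries, so counts over a term are not independent evidence of its direction. Over all genes tested, 4.66% passed upwards in SC and 3.65% passed in either direction in SI. Higher shares over a term are built into that choice, and nothing is read from them.

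Ion transport and glutamate metabolism gave some of the clearest members. Solyc08g068770, with the terms sulfate transport and N-acetyltransferase activity, had 46.3, 53.9 and 48.9 RPKM in the 3 SCP libraries, against 0.306, 4.63 and 1.33 RPKM in the SCUP libraries, a ratio of means of 23.8. Its SI values were 2.94, 1.70 and 2.68 RPKM in SIP and 2.57, 2.18 and 3.40 RPKM in SIUP. The SI values of this gene rest on about 9 to 19 reads a library, and its SCUP values on about 2, 29 and 9 reads. Its SCP libraries lay close to each other, and both SI groups overlapped at the low SCUP level. Solyc06g063180 carries the terms of an ionotropic glutamate receptor, a channel gated by glutamate; in plants such channels pass calcium, and in Arabidopsis and tobacco they act in pollen tubes as well as in other tissues. This gene had 69.5, 100.1 and 61.5 RPKM in SCP and 7.03, 8.78 and 8.65 RPKM in SCUP, 9.45 times higher by means. Its SI levels, 19.3, 13.8 and 8.44 RPKM in SIP and 11.4, 17 and 12.2 RPKM in SIUP, overlapped and lay mostly above SCUP and all below SCP. Solyc04g025530 has the term glutamate decarboxylase activity, the enzyme that makes gamma-aminobutyrate (GABA) from glutamate; in Arabidopsis a GABA gradient in the pistil helps to guide pollen tubes. Its SCP libraries held 28.6, 47.3 and 48.2 RPKM, against 1.56, 6.13 and 4.51 RPKM in SCUP. In SI styles it stayed low, with 3.02, 2.71 and 1.65 RPKM in SIP and 1.15, 1.90 and 3.37 RPKM in SIUP. Solyc04g054500, annotated with metal ion transport, averaged 78.7 ± 15 RPKM in SCP and 12.2 ± 2.94 RPKM in SCUP, and 32.6 ± 3.67 RPKM in SIP and 27.9 ± 12.8 RPKM in SIUP (SD, n = 3 each). All of its SI libraries lay between the SCUP and the SCP libraries.

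Sugar and cell wall genes among the members differed in their SI level. Solyc10g083290 has the term sucrose alpha-glucosidase activity, that of invertases, which split sucrose into glucose and fructose. It had 349, 575 and 445 RPKM in SCP, against 42.7, 70.9 and 49.5 RPKM in SCUP, and 9.11, 8.96 and 1.98 RPKM in SIP, against 3.22, 3.0 and 13.7 RPKM in SIUP. SC styles held far more of its RNA than SI styles even without pollination, and its SI libraries spread in both groups over a range wider than their mean. Of the 5 genes with this term, 1 rose in SC and 2 rose in SI. Solyc10g055200, whose term is cell wall, had 29.4, 22.3 and 29.7 RPKM in SCP and 1.96, 1.28 and 1.65 RPKM in SCUP, a ratio of 16.7. Its SI libraries, 4.03, 1.66 and 2.91 RPKM in SIP and 1.32, 4.80 and 4.30 RPKM in SIUP, overlapped. The cell wall term was shared by 26 genes, of which 12 of 24 tested rose and 2 fell in SC, and 5 of 19 tested rose in SI. Solyc08g081930, annotated as an isomerase with carbohydrate binding, averaged 17.7 ± 1.98 RPKM in SCP and 3.83 ± 1.12 RPKM in SCUP, with 5.54 ± 2.66 RPKM in SIP and 4.07 ± 0.582 RPKM in SIUP (SD, n = 3 each).

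Several members carried redox or metal-binding terms. Solyc03g116700 had copper ion binding and electron carrier activity. Its SCP libraries held 344, 459 and 295 RPKM and its SCUP libraries 10.2, 37 and 21.4 RPKM. The SI libraries held 46.1, 52.1 and 17.2 RPKM in SIP and 17.8, 24.6 and 38.9 RPKM in SIUP, overlapping, with SIP1 and SIP2 highest. Solyc02g062460 has the terms of a 2-oxoglutarate-dependent oxygenase, a class of enzymes that in plants makes or breaks down several hormones and flavonoids. It was at 331, 656 and 533 RPKM in SCP, against 33.9, 106 and 41.5 RPKM in SCUP, and at 12, 8.38 and 10.3 RPKM in SIP, against 11.6, 8.99 and 9.19 RPKM in SIUP. All 6 SI libraries lay below all SCUP libraries, and they were close to each other. Solyc06g066590, with response to oxidative stress, averaged 30.3 ± 11.1 RPKM in SCP and 2.31 ± 1.43 RPKM in SCUP, with 6.48 ± 2.12 RPKM in SIP and 6.78 ± 0.963 RPKM in SIUP (SD, n = 3 each). Solyc12g042480, whose terms are those of a heme-containing monooxygenase, had 35.7 ± 2.89 RPKM in SCP and 6.97 ± 1.35 RPKM in SCUP, with 12.3 ± 1.05 RPKM in SIP and 12.2 ± 5.62 RPKM in SIUP (SD, n = 3 each). The broader term oxidation reduction held 4 members among 115 genes, of which 45 of 95 tested passed upwards and 6 downwards in SC, while in SI 23 of 79 passed upwards and 6 downwards.

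A peroxisome term was held by 2 members. Peroxisomes break down fatty acids by beta-oxidation and handle hydrogen peroxide. Solyc12g044940, an oxidoreductase of the peroxisome, had 113, 100.5 and 82.7 RPKM in SCP and 18, 20.3 and 18.3 RPKM in SCUP, and its SI level was between these, with 64.7, 43.8 and 56.1 RPKM in SIP and 38.8, 51.6 and 42.3 RPKM in SIUP. Solyc05g010720 has the terms dodecenoyl-CoA delta-isomerase activity and fatty acid catabolic process, a step that prepares unsaturated fatty acids for beta-oxidation. It was scarce, with 9.40, 12.9 and 8.48 RPKM in SCP, against 2.08, 2.44 and 1.67 RPKM in SCUP. In SI it had 2.20, 1.82 and 2.22 RPKM in SIP and 2.39, 2.88 and 2.38 RPKM in SIUP, lower in SIP by means. Of 12 genes with the peroxisome term, 7 rose in SC, while in SI 3 rose and 1 fell.

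Kinase terms were held by 4 members. Solyc08g066210, a serine/threonine kinase of the plasma membrane with a MAPK cascade term, had 50.6, 72.1 and 50.5 RPKM in SCP and 13.1, 13.2 and 14.9 RPKM in SCUP. In SI it had 8.66, 8.80 and 6.34 RPKM in SIP and 4.83, 6.46 and 5.56 RPKM in SIUP, where SIP1 and SIP2 were above all SIUP libraries and SIP3 was not. Solyc11g072630, a MAP kinase (the last kinase of a cascade that carries stress and growth signals), averaged 17.8 ± 4.58 RPKM in SCP and 3.43 ± 2.29 RPKM in SCUP, with 2.47 ± 0.542 RPKM in SIP and 3.63 ± 2.10 RPKM in SIUP (SD, n = 3 each). These are the only genes with the MAPK cascade term in the part of the annotation at hand, and both rose in SC. Solyc04g007390, a kinase with polysaccharide binding, had 10.8 ± 2.23 RPKM in SCP and 2.06 ± 0.544 RPKM in SCUP, with 1.18 ± 0.590 RPKM in SIP and 1.62 ± 0.277 RPKM in SIUP (SD, n = 3 each). Solyc04g077270 is a serine/threonine kinase with the term recognition of pollen, a term commonly given for likeness to the S-receptor kinases of Brassica, which does not by itself place the gene in the S-RNase system of the tomato family. It had 16.8, 15.6 and 21.3 RPKM in SCP and 0, 1.37 and 4.43 RPKM in SCUP, on 22 to 32 reads in SCP and 0 to 7 reads in SCUP. In SI it had 3.61, 0.810 and 2.47 RPKM in SIP and 0, 4.68 and 0.769 RPKM in SIUP, on 0 to 6 reads a library. At 0 reads, levels of up to 1.97 RPKM in SCUP1 and 2.36 RPKM in SIUP1 are allowed by counting error alone, so its SI difference is poorly fixed. Over the annotation at hand, 9 genes had that term, of which 6 of 8 tested rose and 1 fell in SC, and 2 of 6 tested rose in SI. The term protein serine/threonine kinase activity covered 62 genes, of which 30 of 54 tested passed upwards and 3 downwards in SC, while in SI 15 of 47 passed upwards and 2 downwards.

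Transcription factors and defence genes were represented by 3 members. Solyc03g118190, a DNA-binding transcription factor with the term defense response to fungus, had 81.9, 75 and 66.9 RPKM in SCP, against 7.27, 14.5 and 8.22 RPKM in SCUP. In SI styles it was low throughout, at 1.57, 2.04 and 0.638 RPKM in SIP and 1.68, 1.36 and 1.64 RPKM in SIUP, below every SC library. Solyc02g078340, a sequence-specific transcription factor, had 116, 101 and 81.3 RPKM in SCP and 16.2, 18.9 and 15.7 RPKM in SCUP, with 21.3, 18.6 and 18.6 RPKM in SIP and 8.64, 20.3 and 13.2 RPKM in SIUP. Its SIP libraries were close together, while SIUP1 stood lowest and SIUP2 overlapped SIP. Solyc04g049090 carries calmodulin binding, negative regulation of defense response and leaf senescence, and had 249.8, 156 and 142 RPKM in SCP, against 21.2, 27.7 and 34.7 RPKM in SCUP, highest in SCP1. In SI it had 18.1, 20.5 and 8.69 RPKM in SIP and 15.6, 22.6 and 21.6 RPKM in SIUP, overlapping, with SIP3 lowest. Among the annotated genes at hand, transcription factor activity covered 32, of which 14 of 27 tested rose and 1 fell in SC, and 11 of 22 tested rose in SI. Defense response to fungus covered 15 genes, of which 10 of 14 tested rose in SC and 5 of 13 in SI.

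**Figure D3:**
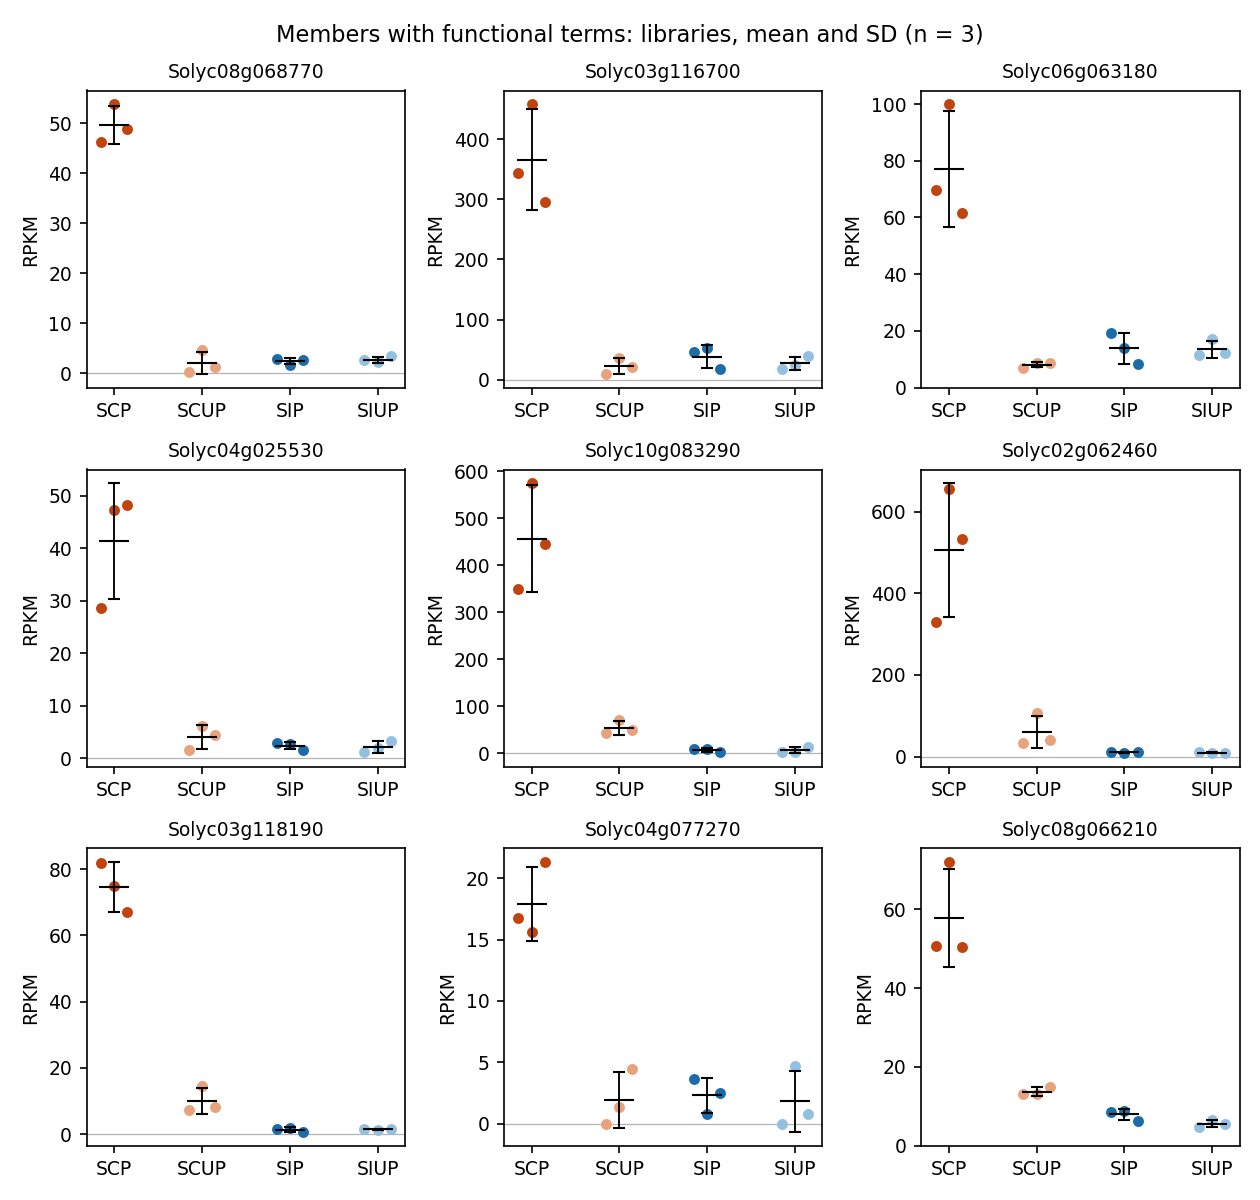
RPKM of 9 members with functional terms in SCP, SCUP, SIP and SIUP styles, 1 point a library, with the mean as a long bar and the SD (n = 3) as the error bar; each panel has its own scale. In every panel the 3 SCP libraries stand above the 9 others, and the SIP and SIUP libraries overlap.

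The remaining members with terms are single representatives. Solyc05g016310, an aspartic endopeptidase (a protein-cutting enzyme), averaged 63.2 ± 4.44 RPKM in SCP and 12 ± 5.55 RPKM in SCUP, with 31.8 ± 5.20 RPKM in SIP and 23.6 ± 4.34 RPKM in SIUP (SD, n = 3 each). Solyc01g105620, known only as zinc-binding, had 29.2 ± 7.91 RPKM in SCP and 6.53 ± 0.578 RPKM in SCUP, with 9.59 ± 1.79 RPKM in SIP and 8.37 ± 3.70 RPKM in SIUP (SD, n = 3 each). Solyc07g052130, a terpene synthase, the enzyme class behind volatile terpenes, was the least abundant member in SI. It had 5.64, 9.07 and 11.7 RPKM in SCP and 0, 2.76 and 1.70 RPKM in SCUP, with 3.03, 0.545 and 0 RPKM in SIP and 0.530, 1.05 and 1.03 RPKM in SIUP. Those SI levels rest on 0 to 5 reads a library, so little can be said of its SI response.

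The members with the largest SC D were mostly genes without a term. Of the 12 largest, 9 had none, and 11 were highest in SCP2. Solyc08g080650 led with a D of 4.82, from 69.4, 281 and 149.98 RPKM in SCP and 0.629, 6.55 and 9.07 RPKM in SCUP. In SI it had 2.16, 7.36 and 2.36 RPKM in SIP and 0.753, 10.8 and 5.51 RPKM in SIUP, so that its unpollinated levels in both species varied by more than 10 times between libraries. The lowest of these levels, in SCUP1 and SIUP1, rest on about 2 reads each. Solyc04g040130 followed, with 23.2, 129 and 66.6 RPKM in SCP and 0.381, 3.97 and 3.79 RPKM in SCUP, and 4.18, 4.54 and 1.59 RPKM in SIP and 2.66, 4.07 and 7.43 RPKM in SIUP. Solyc07g007240 was the most abundant member of all in SCP styles, at 227, 3423 and 737 RPKM, against 16.6, 169 and 76.5 RPKM in SCUP. Its SCP2 level was 15 times its SCP1 level, and SCUP2 was likewise its highest SCUP library, not far below SCP1. In SI its libraries held 46.4, 49.1 and 74.8 RPKM in SIP and 35.2, 52.6 and 71 RPKM in SIUP. Solyc07g054720, also among the 3 most abundant, had 149, 1926 and 715 RPKM in SCP and 4.60, 116 and 33.3 RPKM in SCUP, and averaged 21.6 ± 12.4 RPKM in SIP and 26.2 ± 3.44 RPKM in SIUP (SD, n = 3 each). For both genes the SD of SCP was close to or above the SCP mean, and neither passed the SC test.

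The genes among the 12 largest without a term that follow here were also highest in SCP2, at lower levels. Solyc05g010000 had the widest ratio of SCP2 to SCP1 of all members, 17.2, with 2.74, 47 and 20.2 RPKM in SCP and 0.234, 1.95 and 1.58 RPKM in SCUP. It did not pass the SC test and was too low to be tested in SI. Its values rest on about 11 reads in SCP1, 1 to 8 in SCUP and 1 to 13 in SI libraries. Solyc12g045020 had 22.6, 71.5 and 30.7 RPKM in SCP and 0.919, 3.53 and 2.09 RPKM in SCUP, and Solyc05g008220 had 22.1, 55 and 33.3 RPKM in SCP and 0.648, 4.72 and 1.81 RPKM in SCUP. In Solyc09g011590 the values were 11.7, 68.1 and 39.5 RPKM in SCP and 0.549, 5.06 and 2.34 RPKM in SCUP. In each of these 4 genes SCP2 was the highest SC library and SCUP1 the lowest, and their SI means were low, at 1.24 RPKM in Solyc05g010000, 1.95 RPKM in Solyc12g045020, 1.41 RPKM in Solyc05g008220 and 1.08 RPKM in Solyc09g011590. Solyc02g080040 had 17.8, 103 and 39 RPKM in SCP and 0.484, 6.83 and 2.20 RPKM in SCUP, and the gene next to it in the table, Solyc02g080050, had 17.5, 80.9 and 36.5 RPKM in SCP and 0.776, 6.95 and 2.09 RPKM in SCUP. Whether reads are shared between such neighbours is not given in the sources used here.

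Library SCP2 carried much of the members' level. It was the highest of the 3 SCP libraries in 54 of the 82 members (65.9%), compared with 36.2% of all genes tested in SC and 40.5% of the 210 genes that met the SC limits with an SI D above 0.5. SCUP2 was likewise the highest SCUP library in 54 members, as it was in 66.7% of those 210 genes and in 28.3% of all genes tested. Both held in 40 members (48.8%), against 29.0% of the 210 genes and 11.3% of all. Summed over the 82 members, the libraries SCP1, SCP2 and SCP3 held 6230, 13825 and 7266 RPKM, and SCUP1, SCUP2 and SCUP3 held 816, 1466 and 1048 RPKM. The SIP libraries summed to 1334 to 1645 RPKM and the SIUP libraries to 1227 to 1404 RPKM. The SCP2 sum rests in part on Solyc07g007240 and Solyc07g054720, without which SCP1, SCP2 and SCP3 summed to 5854, 8477 and 5814 RPKM. Medians over the 82 members were 25.02 RPKM in SCP1, 53.9 RPKM in SCP2 and 32.9 RPKM in SCP3, so SCP2 was the highest library by each of these measures, and the SI sums were near those of SCUP.

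This order differed among the members. In 40 of them (48.8%) SCP2 was at least 2 times SCP1, and 1 of these had a functional term. That ratio was reached by 13.0% of all genes tested in SC and by 28.1% of the 210 genes with an SI D above 0.5. In 34 members SCP1 and SCP2 were within 2 times of each other, and 22 of these had a term. In the other 8 (9.76%), none with a term, SCP1 was at least 2 times SCP2, most in Solyc08g007790 with 102, 20.5 and 33.2 RPKM in SCP and 9.07, 7.80 and 13.2 RPKM in SCUP. SCP1 was at least 2 times SCP2 in 5.09% of all genes tested in SC and in 26.2% of the 210 genes. Median SC D was 3.04 in the 40 genes, 2.39 in the 34 and 2.42 in the 8. Passing the SC test were 25 of the 40, 33 of the 34 and 6 of the 8. The SD of the SCP libraries relative to their mean had a median of 0.216 over members with terms and 0.587 over members without, compared with 0.199 over all genes tested in SC. Terms were at hand only for genes picked as changed in these libraries, and 57 of the 82 members were not among those picked in SC, so having a term is not independent of how even the SCP levels are, and nothing is read from the split by terms. Without SCP2 and SCUP2 together, 70 genes met the rule, 63 of them among the 82, and 25 of the 82 passed the SC test.

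**Figure D4:**
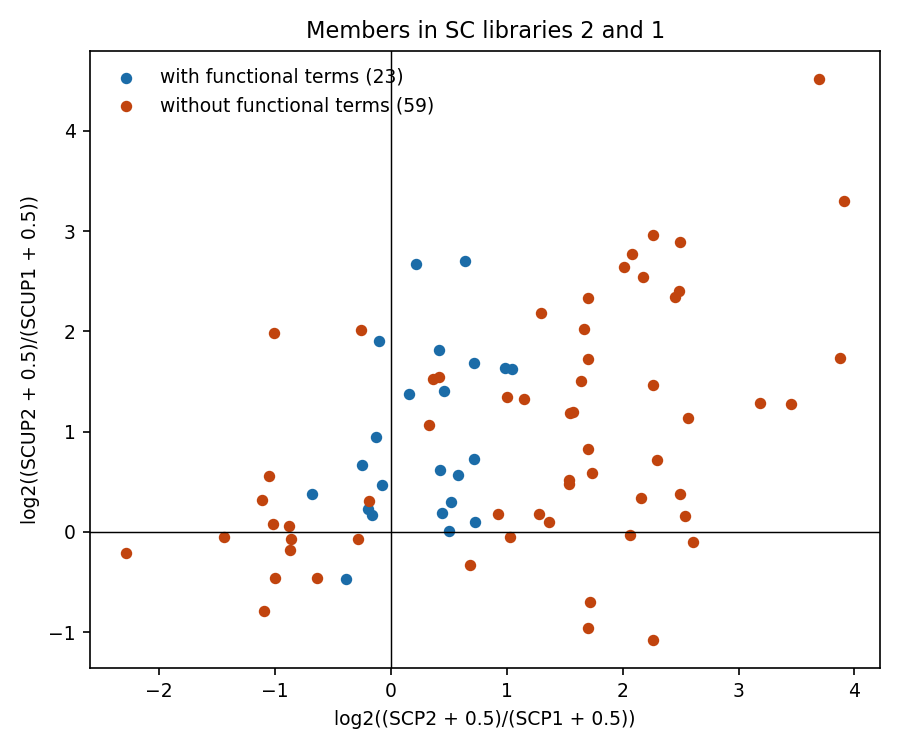
For each of the 82 members, the log2 ratio of SCUP2 to SCUP1 (vertical axis) against the log2 ratio of SCP2 to SCP1 (horizontal axis), both on RPKM + 0.5, with members that have functional terms in blue and the rest in orange. In 52 members both ratios are above 0, and the points with terms lie within about 1 of 0 on the horizontal axis, while the others reach out to both sides.

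Genes with pollen terms were set beside this order of libraries. The annotation at hand gave 19 genes with the terms pollen development, pollen tube growth or pollen sperm cell differentiation, of which 0 were members. The term recognition of pollen, held by the member Solyc04g077270, was not among these terms. Terms were at hand only for genes picked as changed in these libraries. The summed level of the 19 genes was 1397 to 1973 RPKM in SCP and 685 to 1380 RPKM in SCUP, and 781 to 864 RPKM in SIP and 382 to 437 RPKM in SIUP. SCUP2 was the highest SCUP library of the sum and of 14 of the 19 genes. SCP3 was the highest SCP library of the sum and of 10 of the 19 genes. For the 8 genes of pollen tube growth the sums were 503 to 703 RPKM in SCP, and 262, 602 and 406 RPKM in SCUP1, SCUP2 and SCUP3. By these sums, RNA of genes with these pollen terms was present in unpollinated styles, most in SCUP2, and the SCP order of the sums differed from that of the members. Whether these genes are expressed only in pollen was not tested. Solyc08g078390 had 160 to 173 RPKM in SIP and 166 to 190 RPKM in SIUP. Solyc02g090970 had 179 to 190 RPKM in SIP and 23.3 to 38.3 RPKM in SIUP. A few abundant genes weigh most in the sums, such as Solyc05g052110 (274 RPKM) and Solyc08g078070 (208 RPKM) in SCUP2, while Solyc09g005380 was at 0 in every SCUP library. The part of the genes with pollen terms in the members' levels was not tested.

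The levels of the members in SI styles, where the rule asked only for 1 RPKM, ranged widely. Mean SI level was at or below the SCUP mean in 43 members (52.4%), between the SCUP and SCP means in 37 (45.1%), and above the SCP mean in 2 (2.44%). Over all genes tested over the 12 libraries these shares were 46.3%, 7.41% and 56.6%. Among all genes they can overlap, where SCP lies below SCUP. The rule asks for SCP levels well above SCUP, so nothing is read from these shares. In 49 members the mean SI level was within 2 times the SCUP mean, and the ratio of SI to SCUP means had a median of 0.978 and a range of 0.123 to 24.4. All 6 SI libraries lay below all SCUP libraries in 12 members (14.6%), where 22.6% of all genes tested over the 12 libraries did so. They lay above all SCP libraries in 1 member, against 31.4% of all genes tested; the rule asks for SCP levels well above SCUP, so nothing is read from that. Comparisons of level between the species are given as descriptions.

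At the upper end, Solyc01g005410 was the member that stood above SCP in every SI library. It had 84.3, 79.3 and 75 RPKM in SIP and 92.7, 62.9 and 75.2 RPKM in SIUP, while it had 15.4, 25.1 and 12.8 RPKM in SCP and 2.72, 2.06 and 4.84 RPKM in SCUP. The whole SC range of this gene thus lay below its SI level. Solyc01g109460 was likewise high in SI, with 139, 107 and 102 RPKM in SIP and 135, 90.3 and 103 RPKM in SIUP, against 30.6, 148 and 42.2 RPKM in SCP and 18.2, 8.36 and 13.1 RPKM in SCUP, where SCP2 exceeded every SI library and the other SC libraries lay below all of them. Solyc09g075020 was the most abundant member in SI, at 467, 364 and 354 RPKM in SIP and 377, 259 and 358 RPKM in SIUP. In SC it had 1443, 795 and 736 RPKM in SCP, highest in SCP1, and 223, 213 and 232 RPKM in SCUP. Its SI libraries lay above SCUP and below SCP, without overlap with either. At the lower end, the SI mean was at most a ratio of 0.166 to the SCUP mean in 3 members with terms, Solyc10g083290 (0.123), Solyc03g118190 (0.149) and Solyc02g062460 (0.166), so that these genes were low in SI styles with and without pollination.

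**Figure D5:**
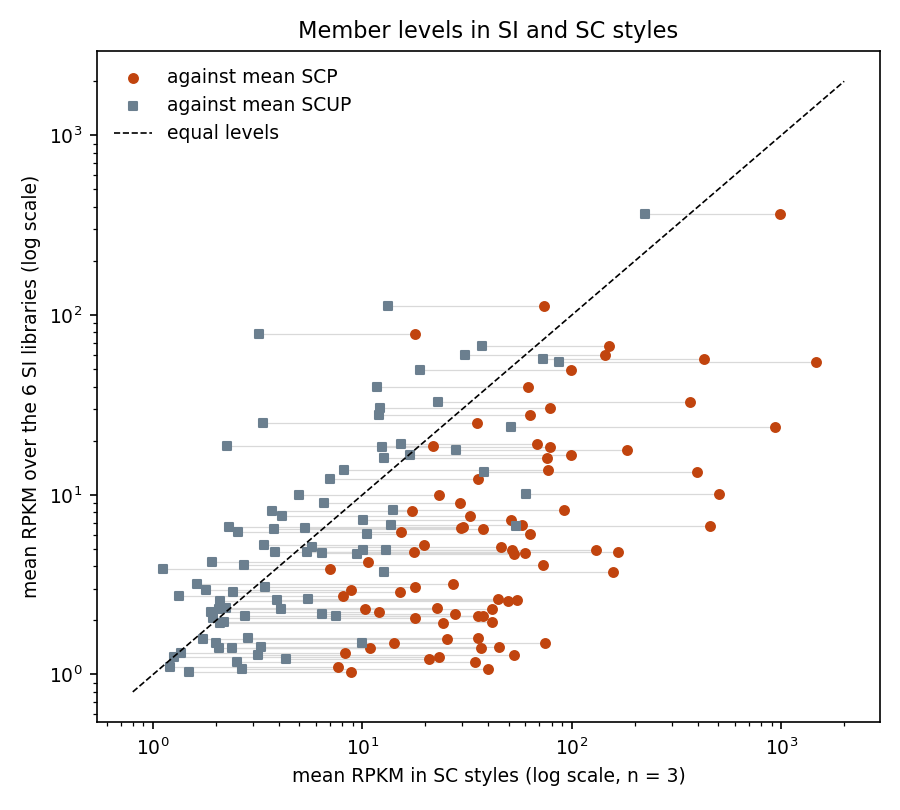
Mean RPKM over the 6 SI libraries (vertical axis, log scale) against mean RPKM in SCP (orange circles) and SCUP (grey squares) styles (horizontal axis, log scale, n = 3), with a line joining the 2 points of each of the 82 members. The squares scatter about the dashed line of equal levels, with 43 of them on or below it, and the circles lie to its right except for 2 members.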

How the data were processed

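Styles of both species were sequenced, and the authors used Trimmomatic 0.32 for trimming, TopHat2 for alignment to the tomato genome and HTSeq for counting per gene. Genome and annotation builds, strand setting and the handling of reads with several matches were not given in the sources used here. Values in RPKM were deposited by the authors, 1 column a library, scaled for gene length and library total. The authors also deposited the count of read pairs before and after trimming. Deposited columns of the authors' own comparisons (ratios, p-values and marks of changed genes) were not used. Of 34725 genes listed, 7 held error codes and were left out, as was 1 line of totals, and 0 columns of values were unmatched.

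The log2(RPKM + 0.5) of genes that reached 1 RPKM in 3 or more fitted libraries was tested with limma 3.58.1 in R 4.3.3 (empirical Bayes with trend) and Benjamini-Hochberg adjustment over all genes tested, at a threshold of 0.05. A fold change on this scale understates the change of low genes. SC and SI were fitted each by itself, and the difference of the responses over all 12 libraries. RPKM values of a gene were whole multiples of what 1 read is worth, within 0.05 reads for 100% of 26562 genes above 0 in at least 2 libraries; voom on reads recovered this way called 1224 genes in SC, 739 in SI and 28 in the difference. The fits were tested on simulated data. Other pseudocounts, filters, scalings, tools and a replicate block were tried, and each library was left out in turn.

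Groups and replicate numbers came from the sample titles. Genes named are the 12 with the largest SC D, the 3 with the highest SCP and the 3 with the highest SI means, and those at the limits of the rule. Grouping by gene description was planned but no descriptions of these IDs were at hand, so functional terms were used, and all 23 members with terms were named, a choice made after their values were seen, as were the pollen terms, the splits by SCP2 and SCP1, and other single genes named. Limits given for 0 reads are those of 3 reads and, like all limits from depth, cover counting error only. The members and the lists were chosen with earlier results of these data known. Tables were made with Python 3.11.15, numpy 2.4.6 and pandas 2.3.3, and plots with matplotlib 3.10.9.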

Additional observations from a re-analysis of the deposited data

Results flagged for a closer look

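The difference between the SC and SI responses passed the limma test (Benjamini-Hochberg adjusted p under 0.05 over all genes tested) in 32 of the 82 members, each with a larger rise in SC than in SI. The genes had been chosen for that pattern, so the count describes them and is no independent evidence of it.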

How the results depend on the processing

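The members' fitted SC response and difference of responses kept their direction under every alternative run. The rule's limits on both responses favour that direction, so nothing is read from it. The number of genes that met the rule was 82 as reported, 78 with a pseudocount of 0.1, 72 with a pseudocount of 1, 76 under upper-quartile scaling and 76 under quantile normalization, and 64 to 104 when 1 library was left out, with 63 and 77 of the 82 shared at these ends. SC calls numbered 64, 54 to 68 under other pseudocounts, filters, scalings and tools, and 80 with all 12 libraries in the fit (3674 calls over all genes, in place of 1303). Leaving out 1 library gave 30 to 74, and leaving out SCP2 and SCUP2, an alternative chosen after seeing the data, gave 25. SI calls stayed at 0 in each alternative (0 to 0 without 1 library), and as the rule asks for a small SI D, nothing is read from that. Calls of the difference numbered 32, 7 with voom, 4 to 57 without 1 library and 13 without SCP2 and SCUP2, and the cause of the drop with voom was not tested. Over single members, 183 of 1388 values of the SC response and 288 of 1798 of the difference lost their call under an alternative, and 48 and 70 gained one.

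Whether replicate numbers pair the libraries is not given in the sources used here, and the libraries were treated as unpaired. Deviations of same-numbered libraries correlated at 0.36, 0.20 and -0.07 in SC and 0.16, -0.21 and 0.06 in SI. SCP1, SCP2 and SIP1 correlated best with their own number, and SCP3, SIP2 and SIP3 with another, which does not settle whether the numbers pair. With a replicate block, 74 members passed in SC, 0 in SI and 26 in the difference, 13 of these 26 among the 32. Over all genes the block gave 1099 calls in SC in place of 1303, 126 in SI in place of 670 and 125 in the difference in place of 210. Motifs in promoters were not run, as no sequence of these genes was at hand. Depth limits the low members: the fewest reads of a member in SI libraries had a median of 33.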

Other observations

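By the chromosome number in their IDs, 11 of the 82 members (13.4%) lay on chromosome 8, compared with 7.09% of all genes with values and 11.2% of the 338 genes that met the SC limits. In the order of the deposited table, 7 neighbouring pairs of members lay within 15 rows of each other, and 2 pairs were adjacent. The adjacent genes shared their highest SCP library: Solyc02g080040 and Solyc02g080050 were highest in SCP2, and Solyc01g094250 and Solyc01g094260 were highest in SCP1.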
